A study of Mus musculus with 18 samples.

Results

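The Hox cluster genes were followed through all RNA-seq tables of a study of mice that lack KDM2B function or RING1B in the dorsal forebrain. Members were taken by name: every entry named Hoxa, Hoxb, Hoxc or Hoxd and a number, with no requirement on level, which gave 39 genes of the 56589 distinct gene names in the tables. All 39 were present in each of the 4 tables, with 11 in the HoxA cluster on chromosome 6, 10 in HoxB on chromosome 11, 9 in HoxC on chromosome 15 and 9 in HoxD on chromosome 2. RNA was measured in 18 libraries, of tissue at postnatal day 0 and of neurospheres cultured from hippocampi of that day. Kdm2b conditional knockouts (cKO, labelled Kdm2bEmx1-delta-CxxC) were compared with Kdm2bfl/+ or Kdm2bfl/fl controls in hippocampus (3 libraries per group), in neurospheres, which are hippocampal progenitors grown in culture with growth factors (2 per group), and in cortex (2 per group). Rnf2Emx1-cKO hippocampi were compared with Rnf2fl/+ or Rnf2fl/fl controls (2 per group). In the Kdm2b line the floxed exon encodes the CxxC zinc finger, and in both lines Emx1-Cre acts in the Emx1 lineage of the dorsal forebrain, so vessels, meninges, blood and other cells outside that lineage keep the gene. The labels group both control genotypes together and do not say whether libraries were pooled from several animals, so p-values measure the spread between these libraries.

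Hox genes encode homeodomain transcription factors that give body segments their identity along the head-to-tail axis. Genes at the 3′ end of a cluster, with low numbers, are used in the hindbrain, those with high numbers in the trunk and tail, and the forebrain uses none of them. Their CpG-rich promoters are a classic substrate of Polycomb repression. RING1B, the product of Rnf2, is the ubiquitin ligase of Polycomb repressive complex 1, which marks histone H2A, and KDM2B brings a variant of that complex to unmethylated CpG dinucleotides through its CxxC zinc finger. The question asked of these data is whether the Hox clusters stayed silent in each knockout.

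Expression was deposited as FPKM, fragment counts scaled by transcript length and by library depth. In the cortex and Rnf2 tables, which also give gene lengths, the values were whole multiples of 1 read, so reads could be recovered: 18480515 to 21905224 per cortex library and 14654894 to 16334420 per Rnf2 library. The other 2 tables give no read numbers per library. Whole-gene Kdm2b was 29.4 ± 2.15 FPKM in control and 27.2 ± 0.992 in cKO hippocampus (SD, n = 3), and whole-gene Rnf2 was 31.5 ± 1.02 in control and 28.1 ± 0.494 in Rnf2 cKO hippocampus (SD, n = 2). The tables do not resolve the deleted exons, so these values do not check the deletion. All 8 forebrain markers, among them Lhx2 and Tbr1, were above 0 in every table, and their summed level was 565 to 626 FPKM in hippocampus, 139 to 154 in neurospheres, 772 to 870 in cortex and 413 to 496 in the Rnf2 hippocampi.

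The Hox genes were at or near 0 in almost every library. Of the 702 Hox values, 638 (90.9%) were 0, 7 reached 0.5 FPKM and 2 reached 1 FPKM, and the highest was 1.31 FPKM for Hoxb13 in 1 neurosphere culture. For 13 genes (Hoxa3, Hoxa4, Hoxa6, Hoxa11, Hoxb1, Hoxb2, Hoxc11, Hoxd1, Hoxd3, Hoxd4, Hoxd10, Hoxd12 and Hoxd13) no library had a value above 0. The values that were not 0 lay mostly in 3 libraries, both Rnf2 cKO hippocampi and 1 Kdm2b cKO neurosphere culture. These are the libraries with summed Hox levels above 1 FPKM.

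**Figure D1:**
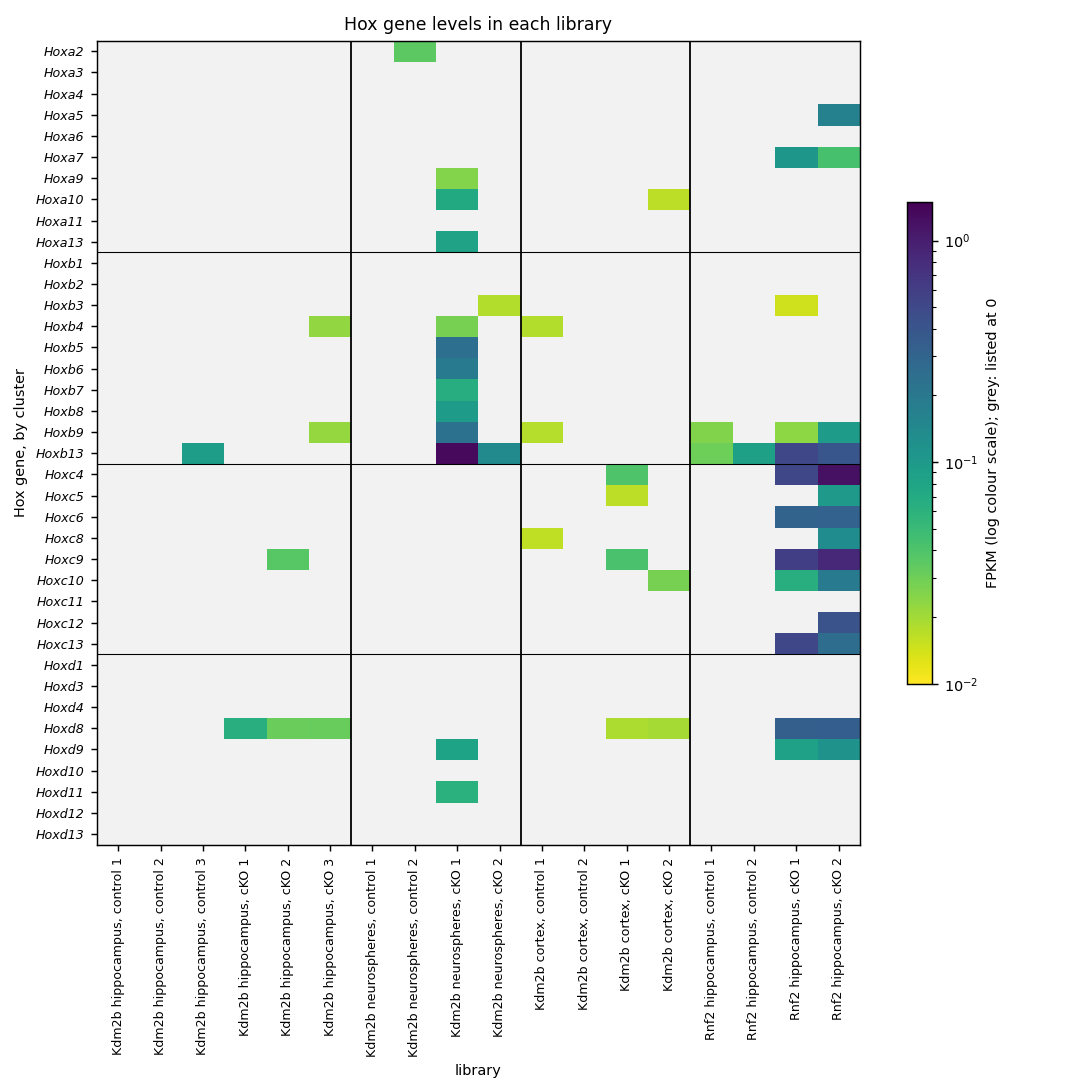
FPKM of the Hox genes reported here (rows, by cluster) in the 18 libraries (columns), on a log colour scale with values of 0 in grey. Most cells are grey, and the coloured cells gather in the 2 Rnf2 cKO hippocampi and in neurosphere cKO 1.

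Promoters are shown for the genes with which the tissue results below are concerned, as far as RefSeq has an entry for them. They are the 250 bases before the RefSeq start (GRCm38.p6), 5′ to 3′ on the gene's strand, with each CG, the dinucleotide that the CxxC finger binds, in capitals. Hoxc4 had the highest level in the Rnf2 cKO hippocampi, Hoxd8 was seen in every cKO tissue library, Hoxd9 was seen in both Rnf2 cKO hippocampi, and Hoxd10, next to Hoxd9, was at 0 in every library.
Hoxc4 promoter, chr15:103034145-103034394, + strand: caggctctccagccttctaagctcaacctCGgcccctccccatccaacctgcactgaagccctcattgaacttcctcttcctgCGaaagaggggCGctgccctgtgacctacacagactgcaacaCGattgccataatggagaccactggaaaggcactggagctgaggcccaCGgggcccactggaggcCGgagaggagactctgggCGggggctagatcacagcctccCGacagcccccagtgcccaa
Hoxd8 promoter, chr2:74704365-74704614, + strand: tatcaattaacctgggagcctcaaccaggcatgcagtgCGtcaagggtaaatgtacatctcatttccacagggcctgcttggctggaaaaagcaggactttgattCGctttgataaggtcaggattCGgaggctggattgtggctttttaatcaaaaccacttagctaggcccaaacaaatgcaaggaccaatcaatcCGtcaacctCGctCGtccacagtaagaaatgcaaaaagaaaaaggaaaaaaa
Hoxd9 promoter, chr2:74697513-74697762, + strand: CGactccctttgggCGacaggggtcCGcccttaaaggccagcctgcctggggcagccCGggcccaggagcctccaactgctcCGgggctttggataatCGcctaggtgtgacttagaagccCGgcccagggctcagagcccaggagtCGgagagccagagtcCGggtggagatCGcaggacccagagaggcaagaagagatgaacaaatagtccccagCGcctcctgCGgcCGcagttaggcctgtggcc
Hoxd10 promoter, chr2:74691641-74691890, + strand: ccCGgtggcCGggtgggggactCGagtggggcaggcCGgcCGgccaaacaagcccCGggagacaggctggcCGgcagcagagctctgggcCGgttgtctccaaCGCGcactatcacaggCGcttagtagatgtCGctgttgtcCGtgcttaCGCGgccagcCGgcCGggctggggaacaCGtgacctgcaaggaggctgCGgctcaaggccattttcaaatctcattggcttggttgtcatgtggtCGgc
The stretches hold 8 CG for Hoxc4, 6 for Hoxd8, 13 for Hoxd9 and 20 for Hoxd10. The RefSeq start of Hoxc4 lies inside the longer span that the deposited annotation gives this gene (chr15:103018934-103036852), and the last bases of the Hoxd9 stretch lie inside its annotated span (chr2:74697727-74700208). RefSeq held promoters for 22 of the 39 Hox genes (24 promoters). Their median was 12.5 CG (range 2 to 35), against 6 over all 32851 promoters of the same length, of which 31.5% held 12.5 CG or more. At least 1 CG was present in 100% of the Hox promoters and in 92.1% of all promoters.

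In Kdm2b cKO hippocampus the Hox clusters remained close to silent. The summed level of the 39 genes was 0, 0 and 0.0903 FPKM in the controls and 0.0636, 0.0927 and 0.0767 FPKM in the cKO libraries, so the groups overlapped. The number of genes above 0 was 0, 0 and 1 in the controls and 1, 3 and 3 in the cKO libraries, and 33 genes were at 0 in all 6. Hoxd8, a trunk gene of the HoxD cluster, was listed at 0 in each control and at 0.0636, 0.0311 and 0.0321 FPKM in the cKO libraries. It was the 1 Hox gene of 39 above 0 in every cKO library and in no control, against 0.0908% of all named genes. Of the 5818 genes at 0 in all controls, 0.361% had that pattern. Hoxb13, a posterior gene at the 5′ end of HoxB, was at 0.0903 FPKM in control 3 and at 0 in the other 5 libraries. Hoxc9, a thoracic gene, was at 0.0365 FPKM in cKO 2 and at 0 elsewhere. Hoxb4 and Hoxb9 were above 0 in cKO 3 alone, at 0.0223 and 0.0222 FPKM.

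In cortex the Hox genes had 3 and 0 reads in the controls and 6 and 3 in the Kdm2b cKO libraries. Scaled to all reads on named genes (RPM, the usual depth-scaled read unit) this was 0.137 (95% exact interval 0.0283 to 0.401) and 0 in the controls, and 0.305 (0.112 to 0.664) and 0.162 (0.0335 to 0.475) in the cKO libraries. For the count of 0 in control 2 the same interval reaches 0.174 RPM, and 3 reads would be 0.141 RPM. The intervals cover counting error only. They overlap between the groups, so a difference of this size could not be told from counting error. No gene had more than 2 reads in a library, and 30 were at 0 throughout. Hoxc9 and Hoxc4, the genes with the highest means, had 2 reads each in cKO 1 (0.0419 and 0.0397 FPKM) and none elsewhere. Hoxd8 had 1 read in each cKO library (0.0186 and 0.0195 FPKM) and 0 in both controls. It was again the 1 Hox gene seen in every cKO and no control library, where 0.645% of all named genes were. Of the 26694 genes at 0 in both controls, 1.31% had that pattern.

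**Figure D2:**
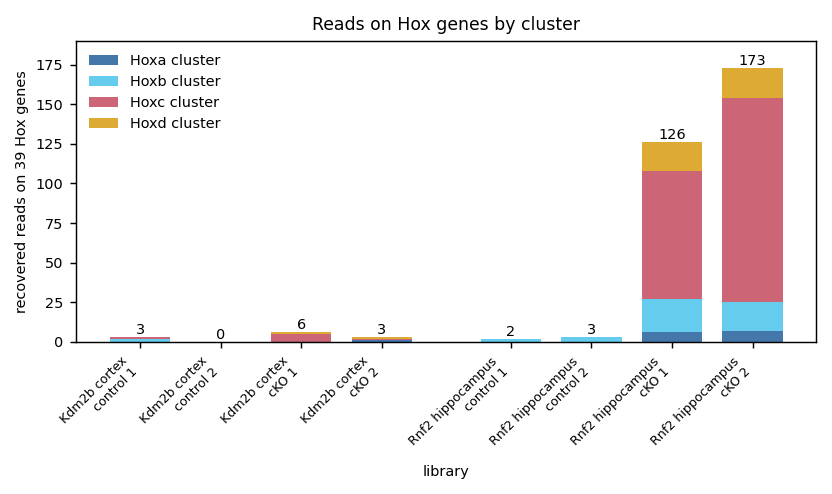
Recovered reads per library summed over each Hox cluster, in cortex and in the Rnf2 hippocampi. Cortex libraries had 0 to 6 Hox reads, Rnf2 controls had 2 and 3, and Rnf2 cKO libraries had 126 and 173, of which HoxC held 81 and 129.

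In Rnf2 cKO hippocampus, reads appeared on Hox genes of all 4 clusters, at low levels. The 39 genes had 2 and 3 reads in the controls and 126 and 173 reads in the cKO libraries. In RPM this was 0.136 (95% exact interval 0.0165 to 0.493) and 0.191 (0.0394 to 0.558) against 7.71 (6.43 to 9.18) and 10.7 (9.17 to 12.4). Genes above 0 numbered 2 and 1 in the controls and 12 and 14 in the cKO libraries. Summed levels were 0.0563 and 0.0874 FPKM in the controls and 3.10 and 4.60 FPKM in the cKO libraries, which did not overlap. Even so, 23 of the 39 genes had no read in any of the 4 libraries. In bulk tissue, a few cells with much Hox RNA and many cells with little cannot be told apart.

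The HoxC cluster held most of these reads, 81 of 126 in cKO 1 and 129 of 173 in cKO 2, and none in either control. Hoxc4, an anterior gene used at cervical levels, had 22 and 50 reads (0.518 and 1.20 FPKM). With a floor of 3 reads in each control, its mean level was at least 11.2-fold higher in the cKO libraries. Hoxc9 had 24 and 33 reads (0.598 and 0.839 FPKM) and was at least 8.88-fold higher by the same floor. Hoxc13, the most posterior gene of the cluster and known for its role in hair and nails, had 21 and 10 reads (0.516 and 0.251 FPKM), at least 4.80-fold higher. Hoxc6, a thoracic gene, had 12 reads in each (0.302 and 0.308 FPKM), at least 3.73-fold higher. Hoxc10 had 2 and 6 reads, and Hoxc12, Hoxc8 and Hoxc5 had 7, 6 and 5 reads in cKO 2 alone. Hoxc11 had none, so 5 and then 8 of the 9 HoxC genes were seen. Reads thus lay at the anterior end (Hoxc4), in the middle and at the posterior end (Hoxc13) of the cluster. The annotated span of Hoxc5 (chr15:102967443-103017429) covers Hoxc6, Hoxc8 and Hoxc9 and overlaps Hoxc10, so how reads divide between these 5 genes is uncertain. Hoxc4 and Hoxc13 (chr15:102921103-102928814) overlap no other named gene.

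**Figure D3:**
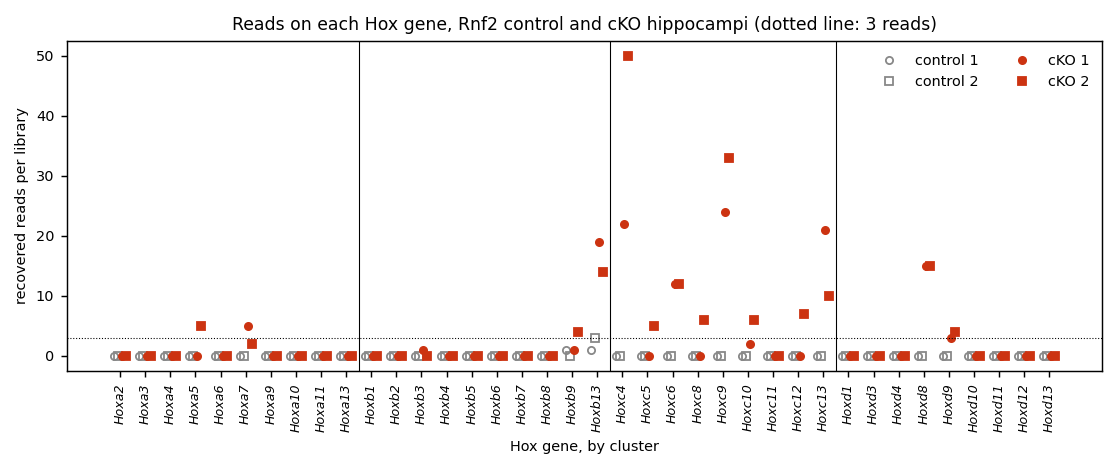
Recovered reads (vertical axis) on each Hox gene reported here in the 2 control (open) and 2 cKO (filled) Rnf2 hippocampus libraries, by cluster, with a dotted line at 3 reads. Control points lie at 0 to 3 reads, and the highest cKO points are Hoxc4 at 22 and 50 and Hoxc9 at 24 and 33.

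In the HoxD cluster Hoxd8 had 15 reads in each Rnf2 cKO library (0.331 and 0.338 FPKM) and none in the controls, at least 4.66-fold higher. Hoxd9, its 5′ neighbour, had 3 and 4 reads and was at 0 in the controls. The other 7 HoxD genes, Hoxd10 among them, had none. In HoxB, Hoxb13 (chr11:96194316-96197447) was the one gene with reads in both controls, 1 and 3 (0.0303 and 0.0874 FPKM), against 19 and 14 in the cKO libraries (0.521 and 0.392 FPKM). The ratio of the RPM values, over both libraries of each group, was 7.71 (95% exact interval 2.74 to 30.0, counting error only). Hoxb9 had 1 and 0 against 1 and 4 reads, and Hoxb3 had 1 read in cKO 1. In HoxA, Hoxa7 had 5 and 2 reads and Hoxa5 had 5 reads in cKO 2, with none in the controls. HoxA and HoxB therefore showed fewer reads than HoxC in each cKO library, at 6 and 7 for HoxA and 21 and 18 for HoxB.

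A total of 8 Hox genes (Hoxa7, Hoxc4, Hoxc6, Hoxc9, Hoxc10, Hoxc13, Hoxd8 and Hoxd9) were above 0 in both Rnf2 cKO libraries and in neither control. Among all named genes 1.07% had that pattern, or 1.99% of the 29244 genes at 0 in both controls. No Hox gene was above 0 in both controls and in neither cKO library, a pattern of 0.597% of all genes. Apart from Hoxc4, Hoxc9 and Hoxb13, the genes described here were named after their values were seen.

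No Hox gene reached the mean of 0.5 FPKM that the fit across all genes required, in any of the 4 comparisons, so none could be called there. That fit was limma on log2(FPKM + 1), with calls at an absolute log2 difference above 0.4 and an unadjusted p under 0.05. It called 3.89% of tested genes higher and 2.25% lower in Kdm2b cKO hippocampus, 11.4% and 13.2% in neurospheres, 4.73% and 2.28% in cortex, and 2.86% and 1.85% in Rnf2 cKO hippocampus. With no filter all 39 Hox genes entered. Of them, 1 was called, Hoxc9 in Rnf2 cKO hippocampus, where 0.610% of all genes were called higher and 0.378% lower. None was called in neurospheres (5.01% of all genes higher, 5.80% lower), where only Hoxb13 could have been. All other Hox values in neurospheres were at most 0.240 FPKM, too low for a log2 difference above 0.4. None could be called in Kdm2b cKO hippocampus (2.10% and 1.20%) or cortex (1.25% and 0.505%). Hox values there were at most 0.0903 and 0.0419 FPKM, too low for a log2 difference above 0.4. Hoxc9 was 0.78 ± 0.19 (SE) higher on that scale (limma adjusted p = 1), and the call was lost without control 1. The difference was 0.87 ± 0.28 for Hoxc4 and 0.46 ± 0.19 for Hoxb13 (adjusted p = 1 for both), and neither was called. On recovered reads, limma-voom over all genes with at least 5 reads let in 14 of the 39 Hox genes, through their cKO reads. It placed 6 past the unadjusted threshold as higher (Hoxb13, Hoxc4, Hoxc6, Hoxc9, Hoxc13 and Hoxd8), where 2.20% of all genes tested were. None of the 14 would have entered on its control reads, so that count is no support. For the genes chosen by level it gave adjusted p = 0.365 for Hoxc9, 0.459 for Hoxc4 and 0.738 for Hoxb13. None of the 14 passed an adjustment over all genes tested. In this comparison 0 genes of any kind passed it in the FPKM fit, and 10 passed it higher and 2 lower in the read fit.

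Hoxd8 (chr2:74704615-74707933) was above 0 in all 7 cKO tissue libraries, 3 Kdm2b hippocampi, 2 Kdm2b cortices and 2 Rnf2 hippocampi, and at 0 in all 7 tissue controls. Of the 21201 gene names present in all 3 tissue tables it was the 1 gene with that pattern, or 0.00472%. That share is Hoxd8 itself, and the pattern was looked for with these values known, so it is no support. In the Kdm2b tissues alone the pattern was shared by 3 genes, Hoxd8, H2-Bl and Uncx. Each Kdm2b cortex value rested on 1 read, the Kdm2b hippocampus table gives no read numbers, and the tables were normalized separately, so their levels are set side by side without a test. Hoxd8 overlaps the noncoding gene Hoxd3os1 on the other strand, and whether counting used strand is not stated. Hoxd3os1 was at 0.0177 FPKM in cortex cKO 1 and 0.0421 FPKM in Rnf2 cKO 1 and at 0 in the other tissue libraries. Hoxd8 was at 0 in all 4 neurosphere libraries.

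In neurospheres the Hox genes differed more between the 2 cKO cultures than between the groups. Summed levels were 0.168 and 0.167 FPKM in the controls, 2.49 FPKM in cKO 1 and 0.157 FPKM in cKO 2. The number of genes above 0 was 1 and 2 in the controls, 12 in cKO 1 and 2 in cKO 2, and 24 were at 0 throughout. Hoxb13 was at 1.31 and 0.139 FPKM in the cKO cultures and at 0 in the controls (0.70 ± 0.45 SE on the log2 scale without the filter, limma adjusted p = 0.608). It was the 1 Hox gene above 0 in both cKO cultures and in neither control, against 0.756% of all named genes. Of the 7736 genes at 0 in both controls, 2.29% had that pattern, as had 1 of the 37 such Hox genes. The reverse pattern was held by 1 Hox gene as well, against 0.739% of all named genes. In cKO 1 a run of HoxB genes accompanied it: Hoxb5 at 0.240 FPKM, Hoxb9 at 0.230, Hoxb6 at 0.192, Hoxb8 at 0.0934, Hoxb7 at 0.0663 and Hoxb4 at 0.0281. The same culture had Hoxa9, Hoxa10, Hoxa13, Hoxd9 and Hoxd11 at 0.0254 to 0.0841 FPKM. All 11 of these were at 0 in the other 3 libraries, and all but Hoxb5 were named after their values were seen. Hoxb3 was at 0.0177 FPKM in cKO 2 alone. The HoxC genes were at 0 in every neurosphere library.

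Other genes marked the same culture. Cdx1, a ParaHox factor that activates trunk Hox genes, was at 2.44 FPKM in cKO 1 and 0 in the other neurosphere libraries. Its relative Cdx2 was at 0.587 FPKM in cKO 1, 0.0284 in cKO 2 and 0 in the controls. Summed blood markers were at 3.11 FPKM in cKO 1 and 0 in the other 3, with the haemoglobin entries Hbb-bs at 1.74 FPKM and Hba-a1 at 1.26 FPKM. The part of these transcripts in the Hox values of cKO 1 was not tested.

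Hoxa2, an anterior gene used in the hindbrain, was at 0.0353 FPKM in neurosphere control 2 and at 0 in the other 3 libraries. Hotairm1 (chr6:52156902-52162119), a noncoding gene of the HoxA cluster, fell in the cKO cultures. It was at 2.34 and 2.03 FPKM in the controls and 0.559 and 0.442 FPKM in the cKO cultures, which did not overlap, a log2 difference of -1.09 ± 0.16 (SE; limma adjusted p = 0.00886). Whether counting used strand is not stated, so part of its value is uncertain. Hotairm1 was at 0 in the other 3 tables.

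**Figure D4:**
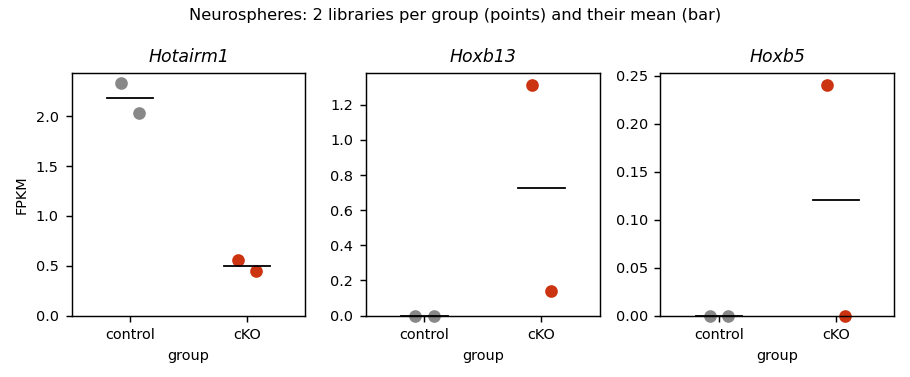
FPKM of Hotairm1, Hoxb13 and Hoxb5 in the 2 control and 2 cKO neurosphere libraries, with points for libraries, bars for group means and a separate axis for each gene. Hotairm1 is higher in both controls, and Hoxb13 and Hoxb5 are high in cKO 1 alone.

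The partners of Hox proteins were present in every tissue, unlike the Hox genes. The 9 genes of the PBX, MEIS and PKNOX families, whose products bind DNA together with Hox proteins, summed to 96.2 to 118 FPKM in the Kdm2b hippocampi, 109 to 114 in cortex and 62.2 to 66.6 in the Rnf2 hippocampi. None was called in those 3 comparisons. In neurospheres Pbx3 (0.81, adjusted p = 0.0141) and Meis2 (0.51, adjusted p = 0.0152) rose on the log2 scale in limma and the other 7 were not called. There 11.4% of all genes tested were called higher and 13.2% lower. Noncoding genes of the clusters were at or near 0 in tissue. All 16 in the Kdm2b hippocampus table were at 0 throughout, and 15 of 17 were in cortex. In the Rnf2 hippocampi 13 of 17 were at 0 throughout, and Hotair, which lies in HoxC, was at 0 in both controls and 0.0905 and 0.154 FPKM in the cKO libraries.

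Genes that flank the clusters were widely expressed, and those called lay in neurospheres and in Rnf2 cKO hippocampus. Of 13 listed neighbours, none of those tested was called in Kdm2b cKO hippocampus or cortex. Skap2, an adaptor protein gene beside HoxA, rose in Rnf2 cKO hippocampus from 0.853 and 0.600 to 2.39 and 2.44 FPKM (log2 0.99 ± 0.18 SE, limma adjusted p = 0.501, called on the unadjusted p). Calcoco1, which lies beside HoxC, rose there too (log2 0.45, limma adjusted p = 0.691, called on the unadjusted p). The other 9 tested were not called. Over all genes tested there, 2.86% were called higher and 1.85% lower. In neurospheres Skap2 fell from 38.4 and 31.6 to 12.9 and 14.2 FPKM (log2 -1.30 ± 0.12 SE, limma adjusted p = 0.00216), Calcoco1 fell and Cbx5 rose, of 9 tested. Over all genes tested in neurospheres, 11.4% were called higher and 13.2% lower. Of the 8 ParaHox and cluster-linked homeobox genes, Gsx2 rose and Gsx1 fell in neurospheres, of 3 tested, and the 1 tested in each tissue comparison was not called.

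A list of 29 other developmental transcription factors known as Polycomb targets was read in the same way. In Rnf2 cKO hippocampus 8 of them (among them Foxa1, Pax1, Pax9, Tbx5, Six2, Wt1 and Barx1) were above 0 in both cKO libraries and in neither control, as were 8 of the 39 Hox genes. Among all named genes 1.07% had that pattern. The summed level of the 29 factors was 1.92 and 2.44 FPKM in the controls and 4.40 and 4.30 FPKM in the cKO libraries. In Kdm2b cKO cortex the list summed to 1.49 to 1.65 FPKM in controls and 3.58 to 4.15 FPKM in cKO, with Pax7 the 1 gene seen in both cKO libraries and no control, and 1 other gene with the reverse pattern. Of all named genes 0.645% and 0.878% had these patterns. In the Kdm2b hippocampi the sums overlapped, at 4.04 to 5.50 and 4.23 to 4.98 FPKM. Pax3 was the 1 gene seen there in every cKO library and no control, against 0.0908% of all named genes. No member was called in tissue, where 3, 1 and 2 of the 29 reached the tested level in Kdm2b hippocampus, cortex and Rnf2 hippocampus. In neurospheres the list sum fell without overlap. It was 25.01 and 29.63 FPKM in the controls and 11.28 and 9.78 FPKM in the cKO cultures. Nkx2-2, the 1 member tested there, fell. Even so, 6 members were above 0 in both cKO cultures and in neither control, and 1 (Pax1) had the reverse pattern.

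**Figure D5:**
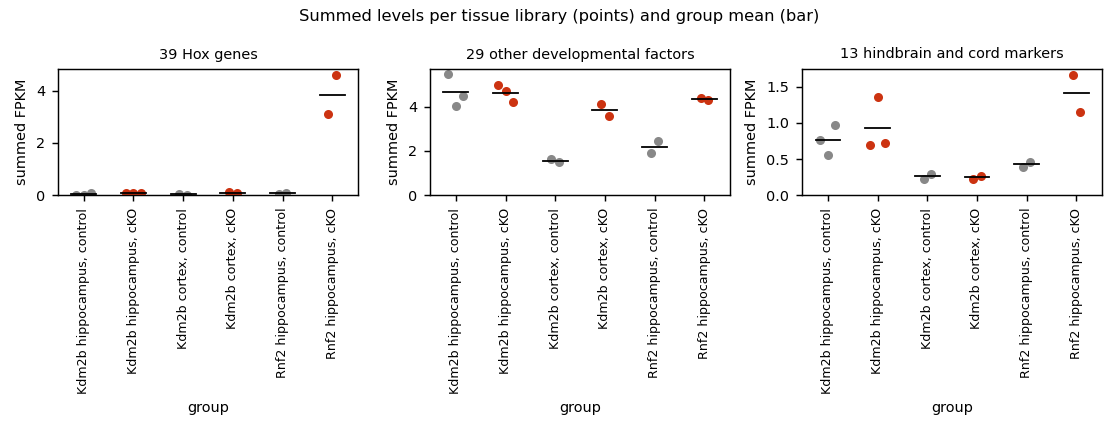
Summed FPKM per tissue library (points) and group mean (bar) for the 39 Hox genes, 29 other developmental factors and 13 hindbrain and spinal cord markers, with a separate axis for each list. For Hox genes the Rnf2 cKO hippocampi at 3.10 and 4.60 FPKM lie apart from all other tissue libraries, none of which exceeded 0.117 FPKM.

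Markers of other tissues that could carry Hox RNA are given beside these results, and their part in them was not tested. In the Rnf2 hippocampi the 13 hindbrain and spinal cord markers summed to 0.395 and 0.465 FPKM in the controls and 1.67 and 1.15 FPKM in the cKO libraries, with 3 of them, Phox2a and Atoh1 included, at 0 throughout and all 13 too low to test. Gbx2, a marker of the anterior hindbrain, was at 0 and 0.0295 FPKM in the controls and 0.528 and 0.369 FPKM in the cKO libraries. Pax8 went the other way, at 0.0110 and 0.0424 FPKM in the controls and 0 in both cKO libraries. The 8 choroid plexus markers summed to 51.7 and 13.5 FPKM in the controls, 246 FPKM in cKO 1 and 9.09 FPKM in cKO 2. Of the 7 meningeal markers, 4 fell (Col3a1, Col1a1, Col1a2 and Lum), 1 of 7 blood markers fell (Hba-a2), and no endothelial marker was called. Limma adjusted p was 0.517 (Col3a1) to 0.683 (Lum) for the meningeal markers called and 0.659 for Hba-a2. In Kdm2b cKO cortex 6 of 7 meningeal markers rose, and their sum went from 1.54 and 2.30 to 35.4 and 21.2 FPKM. There 3 blood and 2 endothelial markers rose as well, Aqp1 of the choroid plexus list rose, and the hindbrain and spinal cord markers summed to 0.225 to 0.298 FPKM in both groups. For the markers called in cortex limma adjusted p ran from 0.0114 (Dcn) to 0.304 (Hbb-bt). In Kdm2b cKO hippocampus 3 choroid plexus markers were called higher on the unadjusted p (limma adjusted p = 0.194 for Ttr, 0.0515 for Otx2 and 0.193 for Clic6). The sums of that list overlapped, at 7.24, 6.03 and 17.9 FPKM in the controls and 61.6, 44.1 and 8.48 FPKM in the cKO libraries. No meningeal, blood or endothelial marker was called there, and hindbrain and spinal cord markers summed to 0.553 to 0.972 and 0.696 to 1.36 FPKM. In neurospheres En2 and Gbx2 rose, Egr2 fell and Otx2 rose, no meningeal or endothelial marker was called (1 of each list tested), and blood markers were too low to test. Above 0 in both cKO cultures and in neither control were 2 meningeal markers (Col3a1 and Lum), 1 choroid plexus marker (Clic6) and 1 hindbrain and cord marker. None of these 3 lists had the reverse pattern. Among all named genes 0.756% were seen in both cKO cultures alone. Of the 8 forebrain markers, Emx1 rose in Rnf2 cKO hippocampus (limma adjusted p = 0.643) and Zbtb20 fell in cortex (limma adjusted p = 0.246). None of the 8 was called in Kdm2b cKO hippocampus, and Emx1 rose and Emx2 and Zbtb20 fell in neurospheres. Of the 5 progenitor markers, Pax6, Nes and Vim rose in Kdm2b cKO hippocampus, Vim and Nes in neurospheres, Nes in cortex and none in Rnf2 cKO hippocampus. Marker calls in every comparison used the unadjusted p. Over all genes tested, 2.86% were called higher and 1.85% lower in Rnf2 cKO hippocampus, and 4.73% and 2.28% in cortex. The shares were 3.89% and 2.25% in Kdm2b cKO hippocampus and 11.4% and 13.2% in neurospheres.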

How the data were processed

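Poly(A)-selected RNA of 18 postnatal libraries was sequenced by the authors, and the deposited values are FPKM per gene in 4 tables. The submitters' processing notes name cutadapt, STAR, Cufflinks 2.2.1, DESeq2 and mm10, and how the cortex and Rnf2 tables were made is not given in the sources used here. The Cufflinks tables of hippocampus and neurospheres held 2861 and 2059 entries without a name, with 29.3% of the FPKM total in neurosphere control 1, and these were left out. Where a name was repeated, its most expressed entry was used. FPKM totals were 363633 to 383249 in hippocampus and 452580 to 855276 in neurospheres. From the deposited FPKM and gene lengths, reads were recovered in cortex and Rnf2 tables (100% whole within 0.02 reads).

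Each comparison was fitted by itself with limma 3.58.1 (R 4.3.3) on log2(FPKM + 1) over genes averaging 0.5 FPKM or more in the comparison, with Benjamini-Hochberg adjustment. Since the 4 fits tested no Hox gene, results rest on levels, reads and the fit without a filter. Hox genes with a mean of 0.5 FPKM, called, or among the 3 highest of a comparison were given by library, and listed context genes were named when called, at most 5 per list. The members and gene lists were chosen with earlier results of these data known. The fit was tested on simulated data. Intervals are 95% Clopper-Pearson, the floor is 3 reads, and both cover counting error only. Alternatives were other offsets, filters, scalings, thresholds, a replicate block and leaving out each library. Chosen after seeing the data were limma-voom on genes with at least 5 reads and limma-voom with adjusted p, dropping the filter together with another change, crossed pairing, the alternatives of the detection counts, and the refits of Hotairm1 and Skap2. Promoters came from RefSeq by symbol. Certain genes are not reported here by name.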

Additional observations from a re-analysis of the deposited data

Results flagged for a closer look

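Among the neighbours of the Hox clusters, 2 genes beside HoxC moved in opposite directions between Kdm2b comparisons with no overlap between control and cKO libraries in either, and the difference between comparisons was not tested. Calcoco1 was higher in Kdm2b cKO hippocampus (log2 difference 0.19, from a mean of 27.5 to 31.5 FPKM) and lower in neurospheres (-0.73, from 37.9 to 22.4 FPKM) and cortex (-0.23, from 21.9 to 18.5 FPKM). Cbx5 was higher in cKO neurospheres (0.45, from 53.7 to 73.6 FPKM) and lower in cKO cortex (-0.13, from 46.7 to 42.6 FPKM). Of these differences, those in neurospheres were called and the others were not (limma adjusted p in cortex 0.396 for Calcoco1 and 0.546 for Cbx5). Lack of overlap was common over all named genes. It was seen for 4588 genes higher and 4925 lower of 23398 in neurospheres. In cortex it was 5592 and 5459 of 54429, and in Kdm2b hippocampus 2192 and 2138 of 23138. No Hox gene showed such opposite movement, but with most Hox values at 0 few could have, so this says little about them.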

How the results depend on the processing

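Of 192 counts of Hox genes called under alternatives, 116 came from fits that tested no Hox gene and were 0 by construction. Of the other 76, 65 were 0 and 11 were not. Many of the 65 were fixed as well. In Kdm2b hippocampus and cortex, Hox values were too low to reach the fold threshold in any fit that used it. In neurospheres the same held for every Hox gene except Hoxb13. With neither a filter nor a fold threshold, 1 Hox gene was called higher in Kdm2b cKO hippocampus and 1 in cortex (Hoxd8 in both, at levels where the fitted error rests on values near 0), 1 lower in neurospheres and 2 higher in Rnf2 cKO hippocampus (Hoxc9 and Hoxd9), against 1 (Hoxc9) with the fold threshold and 6 with limma-voom on genes with at least 5 reads, a filter passed through cKO reads. Leaving out single libraries from the unfiltered fit gave 0 to 1 called higher in neurospheres and 1 to 4 in Rnf2 cKO hippocampus. A mean of 0.1 FPKM was reached by 1 Hox gene in neurospheres and 7 in the Rnf2 hippocampi, and 0.5 FPKM by 0 to 1 in the latter without single libraries. Hox genes seen in every cKO and no control library numbered 1 to 12 in neurospheres (12 without cKO 2, 2 without cKO 1), 1 to 4 in cortex (3 without cKO 1, 4 without cKO 2), and 0 in cortex when 3 reads per library were required. Hotairm1 in neurospheres kept its direction and call in every alternative.

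Calls over all genes with no fold threshold were 1537 higher and 1553 lower in Kdm2b cKO hippocampus, 2230 and 2439 in neurospheres, 1212 and 801 in cortex, and 692 higher in Rnf2 cKO hippocampus. With adjusted p they were 198 lower in hippocampus, 58 and 9 in cortex, and 0 and 0 in Rnf2 cKO hippocampus, against 402 and 80, and 4 and 0, with limma-voom on reads. Scaling to one FPKM total gave 1256 higher and 830 lower in neurospheres, against 1392 and 1620. Leaving out single libraries gave 677 to 1226 higher in cortex (1226 without control 1), and 278 to 808 higher and 190 to 772 lower in Rnf2 cKO hippocampus (808 and 772 without control 2, 278 and 190 without cKO 2, 191 lower without cKO 1). The replicate block gave 437 lower there, against 291, and with no filter it did not call Hoxc9. Replicate numbers do not pair the libraries, since same-number correlations were 0.05, -0.10 and -0.09 in hippocampus, -0.28 in neurospheres, -0.05 in cortex and 0.16 in Rnf2 hippocampi. Crossed pairing in neurospheres gave 1445 higher and 1639 lower. Depth limits the detection of single Hox genes: 1 read separates seen from not seen in cortex.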
